A study of Mus musculus with 35 samples.

Results

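Livers of mice given SP70 were compared with livers of mice given SP300 at the same dose, 10 mg/kg, 6 h after intravenous injection. SP70 and SP300 are silica particles whose names stand for their size, and SP300 is the larger. The comparison set the 5 arrays labelled with SP70 at this dose against the 5 labelled with SP300, 10 of the 35 arrays of the study. It ran over the 12678 genes that could be tested, with the spread between mice estimated from all 35 arrays. Every mouse was of the inbred BALB/c strain and every RNA came from the left lateral liver lobe, with 1 array taken as 1 mouse. The 5 control mice received deionized water by the same route and are given beside the values. The labels state random assignment. Age and sex are not given in the labels used here. The study asked how the response depends on size at equal dose, and that dose is equal by mass, not by particle number or surface.

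Particles in the blood are taken up in the liver largely by Kupffer cells, the resident macrophages of its sinusoids, and in part by the sinusoidal endothelium. Danger receptors and the receptors for interleukin 1 and tumour necrosis factor act through NF-kB, a transcription factor that turns on chemokines, adhesion molecules and its own inhibitors. Hepatocytes answer interleukin 1 and interleukin 6 with acute phase proteins, which they release into plasma.

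The upstream sequences of Cxcl2, Il1rn, Saa3 and Tlr2 are printed because these genes had the highest differences among those in the RefSeq promoter table (GRCm38.p6), and because the results below turn on genes of the NF-kB pathway. Each sequence covers 250 bases before the annotated start, 5′ to 3′ on the strand of the gene. Capitals mark a match to the NF-kB consensus of 10 bases, searched on both strands. The windows are chr5:90903649-90903898 on the plus strand for Cxcl2, chr2:24336610-24336859 on the plus strand for Il1rn, chr7:46715677-46715926 on the minus strand for Saa3 and chr3:83841609-83841858 on the minus strand for Tlr2. Il1rn has 3 starts in the table, and the window of the one listed first is shown.
Cxcl2: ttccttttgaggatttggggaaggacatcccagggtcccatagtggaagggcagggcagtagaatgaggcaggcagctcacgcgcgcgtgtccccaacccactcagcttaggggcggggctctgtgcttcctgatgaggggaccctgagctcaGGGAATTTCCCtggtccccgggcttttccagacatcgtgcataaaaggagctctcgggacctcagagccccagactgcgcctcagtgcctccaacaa
Il1rn: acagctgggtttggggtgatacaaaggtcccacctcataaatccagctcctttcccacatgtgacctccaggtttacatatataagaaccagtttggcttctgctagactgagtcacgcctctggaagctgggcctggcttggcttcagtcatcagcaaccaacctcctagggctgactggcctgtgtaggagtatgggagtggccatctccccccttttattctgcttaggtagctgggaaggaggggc
Saa3: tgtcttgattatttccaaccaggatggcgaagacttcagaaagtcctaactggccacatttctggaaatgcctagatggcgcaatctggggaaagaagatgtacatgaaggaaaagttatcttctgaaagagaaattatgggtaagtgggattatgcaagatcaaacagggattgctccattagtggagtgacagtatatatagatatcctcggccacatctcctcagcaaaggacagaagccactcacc
Tlr2: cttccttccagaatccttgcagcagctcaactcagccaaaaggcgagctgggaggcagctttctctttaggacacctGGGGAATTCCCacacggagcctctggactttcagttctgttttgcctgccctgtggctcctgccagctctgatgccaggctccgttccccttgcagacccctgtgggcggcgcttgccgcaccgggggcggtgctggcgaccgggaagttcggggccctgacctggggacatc
In Cxcl2, matches on opposite strands overlapped and began 97 and 96 bases before the start. In Tlr2, overlapping matches began 173 and 172 bases before it. No match lay in these windows of Il1rn and Saa3. Such a match was held by 7.01% of the windows of all 27025 genes in the table and by 8.50% of the 10252 windows of tested genes. It was held by 12.1% of the 1069 windows of genes higher in SP70 and by 7.44% of the 1048 windows of genes lower in SP70. These shares describe letters in a window and were not tested.

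Values are array signals in arbitrary units. A difference is the mean log2(signal + 12.5) of the SP70 mice minus that of the SP300 mice, so that a positive value is higher in SP70. The standard error (SE) of a difference is from limma, for n = 5 mice in each group and a spread estimated over all 35 arrays. A gene is called where its adjusted p is under 0.05. Folds were computed from signals raised to 165, the median of all values, and are bounds, written as at least, where any mouse on the dimmer side was below that level. The median signal of an array was 167 ± 7.01 (SD, n = 5) in SP70 and 166 ± 5.57 in SP300, which differed by less than the spread between mice (exact permutation test, two-sided, p = 0.690, where the smallest p that 5 against 5 allows is 0.00794). Arrays correlated across the tested genes at 0.967 to 0.976 within the groups and at 0.941 to 0.959 between them. The first principal component of the 10 arrays held 36.9% of the variance and ran from 19.8 to 35.7 in SP70 and from -31.5 to -27.2 in SP300, with SP70 mouse 3 at 19.8. The labelled tissue was borne out by its markers. Alb, the serum albumin gene, ran from 62625 to 92504 in SP70 and from 64465 to 88071 in SP300, a difference of 0.10 ± 0.08, and Ttr (0.05 ± 0.06), Apoa1 (0.05 ± 0.06), Cyp2e1 (0.14 ± 0.07) and Cps1 (-0.01 ± 0.05) were not called either.

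The livers differed in a large share of their genes. Of 12678 genes, 2609 were called, which is 20.6%, and 1322 of them were higher in SP70 (10.4%) and 1287 lower (10.2%). The higher side held the larger differences, with 396 genes past a fold of 2 against 138 on the lower side. The 5 SP70 mice all lay above or all below the 5 SP300 mice for 1703 genes (13.4%), of which 970 were higher and 733 lower. Genes of inflammation led the higher side, and genes of Kupffer cells were prominent among the 12 lowest, with Cd163, Vsig4, Clec4f, Timd4 and C1qa. The median difference over all genes was -0.05, and the split depended on scaling, since centring the arrays on the median of the kept probe sets gave 1252 higher and 1951 lower. Without SP300 mouse 3, the lower count dropped to 815, while the higher count was 1258. A fit of only the SP70 and SP300 mice compared called 2080 genes.

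**Figure D1:**
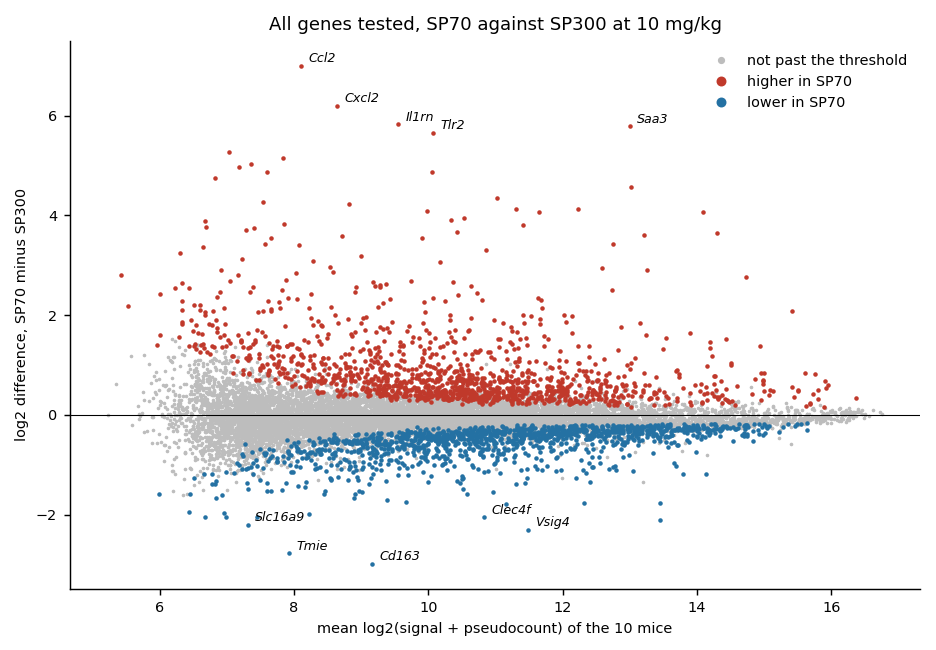
Difference between SP70 and SP300 (log2, vertical axis) against the mean log2 signal of the 10 mice (horizontal axis), 1 point per gene, with called genes in colour. The points above 0 reach 7.01 (Ccl2) and those below 0 reach -2.98 (Cd163).

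Among called genes without overlap between the groups, Ccl2 and Cxcl2 had the 2 highest log2 differences. Both encode chemokines, the secreted proteins that draw leukocytes. All SP300 signals of both were below 165, so the pseudocount bears on this rank and their folds are only bounds. The folds or bounds given below for Saa3, Tlr2 and Il1rn are larger. Ccl2, which draws monocytes, was at 2249, 4135, 3515, 3366 and 2665 in the SP70 mice and at 8.82, 18.7, 12.2, 12.4 and 8.35 in the SP300 mice, with controls from 6.56 to 119. All SP70 mice were above every control mouse, and all SP300 mice were within the control range. The difference was 7.01 ± 0.34 (adjusted p = 1.53e-17), at least 18.9-fold. Cxcl2, which draws neutrophils, was at 3258, 3668, 4621, 3627 and 2326 in SP70 and at 30.1, 64.1, 89.5, 27.2 and 4.55 in SP300, a difference of 6.20 ± 0.36 and at least 20.7-fold. Its relative Cxcl1 could be measured on both sides, from 33293 to 44818 in SP70 and from 956 to 3104 in SP300, and was 23.9-fold higher (4.57 ± 0.25). The groups did not overlap in any of these genes.

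Among the 8 neutrophil-attracting CXC chemokines and their relatives, 4 were higher in SP70, 1 was lower and 3 were not called. Besides those above, Cxcl5 (4.74 ± 0.41) and the platelet chemokine Ppbp (0.90 ± 0.21) were higher. Cxcl12, which holds leukocytes in tissue and marrow, was lower (-0.52 ± 0.12). Of 13 CC and other chemokines, 8 were higher and 0 lower, with a median of 1.61. They included Ccl3 (5.03 ± 0.25), which ran from 816 to 1011 in SP70 and from 5.18 to 40.1 in SP300, and Ccl20 (3.75 ± 0.45). Ccl25 stood at -0.32 and Ccl6 at -0.11, neither called.

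Among the cytokines, the largest difference belonged to an antagonist. Il1rn, the decoy ligand that blocks the interleukin 1 receptor, was at 7786, 4435, 3808, 6108 and 7040 in SP70 and at 14.0, 130, 179, 54.2 and 189 in SP300, against 111 to 195 in controls (5.83 ± 0.33, at least 32.7-fold). Il1b, an agonist of the same receptor, ran from 1349 to 1786 in SP70 and from 146 to 306 in SP300 (2.60 ± 0.18, at least 6.20-fold). Of its SP300 mice, 4 lay below the control range of 300 to 403, with the SP300 difference from control at -0.52 ± 0.18 and not called (adjusted p = 0.16). Ltb, a lymphotoxin subunit, was 6.25-fold higher (2.58 ± 0.23), and Tnf differed by 1.47 ± 0.35. Of 17 interleukins, TNF members and growth factors, 7 were higher, 0 lower and 10 not called, among them Il18 (-0.15), Il15 (-0.49) and Vegfa (-0.43).

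Receptors for danger signals showed a split between members. Tlr2, which binds bacterial lipoproteins, ran from 6719 to 8621 in SP70 and from 72.8 to 171 in SP300 (5.65 ± 0.20, at least 45.8-fold). The lectin receptors Clec4d (5.16 ± 0.28) and Clec4e (4.88 ± 0.36) and the lipopolysaccharide co-receptor Cd14 were also higher. Cd14 was at 9076, 4629, 2625, 6537 and 9125 in SP70, a wide spread, and at 330 to 397 in SP300, and was 16-fold higher (3.96 ± 0.26). Tlr4, the receptor that Cd14 serves, stood at -0.10 and Tlr5 at -0.55, neither called. In all, 11 of 21 danger receptors and adaptors were higher and 0 lower. Of 26 cytokine receptors, 14 were higher, led by Csf3r (2.16), the receptor of granulocyte colony-stimulating factor, Il1r2 (1.66 ± 0.27), a decoy for interleukin 1, the death receptor gene Fas (1.52 ± 0.17) and Osmr (1.49 ± 0.19), the oncostatin M receptor. The 1 that was lower was Csf1r, the receptor that macrophages need to survive, at 4203 to 5866 in SP70 and 8530 to 11505 in SP300 (-1.03 ± 0.13).

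Of 20 NF-kB subunits, inhibitors and feedback genes, 17 were higher in SP70 and 0 lower, with a median of 1.75. Tnfaip3, which encodes the feedback enzyme A20, was at 2366, 2820, 5323, 4869 and 2182 in SP70 and at 274, 239, 350, 234 and 254 in SP300 (3.56 ± 0.29, 12.3-fold). Ikbke, a kinase of the pathway, was 17.0-fold higher (4.07 ± 0.18), whereas Nfkbia, the main cytoplasmic inhibitor, was 2.00-fold higher (1.00 ± 0.12). The subunits Relb (2.97), Nfkb2 (1.19) and Rela (0.87) were higher, and the subunit Rel (0.92 ± 0.36) and the kinase components Ikbkg (0.27) and Ikbkb (0.15) were not called. In each SP70 mouse the list median lay between 1.68 and 1.91 above the control mean, and in each SP300 mouse between -0.08 and 0.30.

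**Figure D2:**
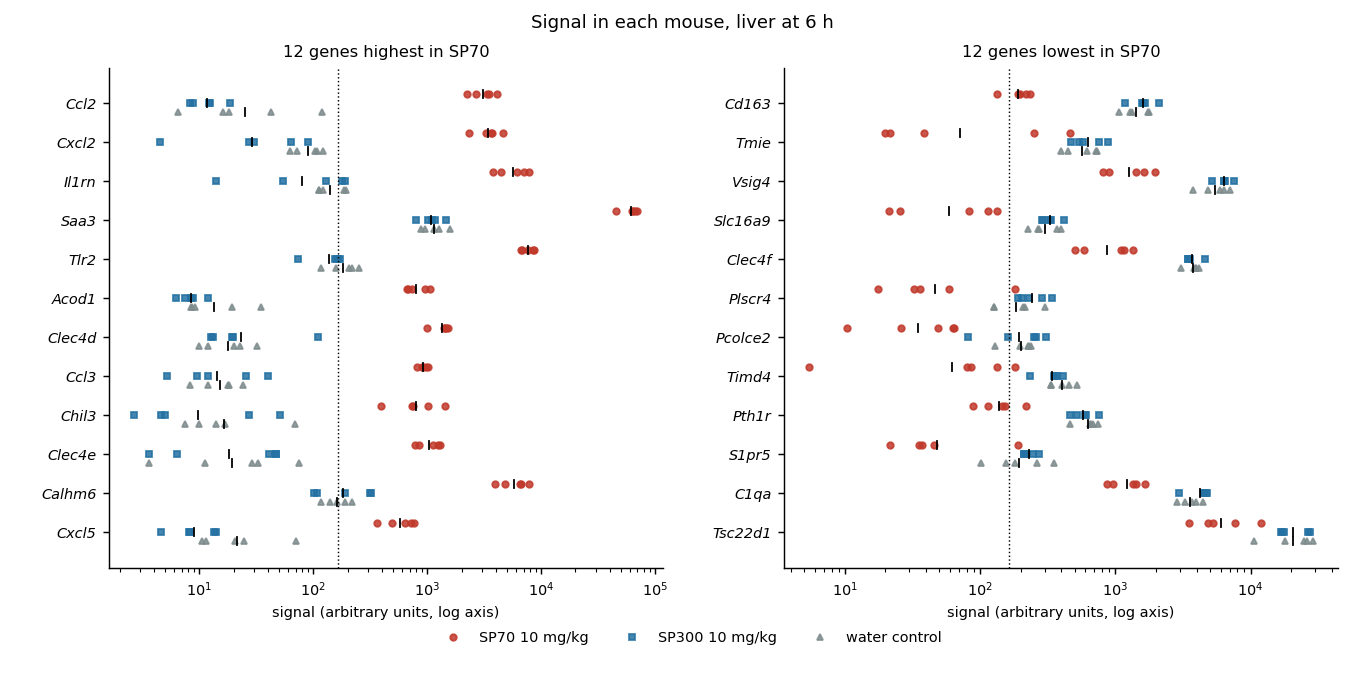
Signal of each mouse (log axis) for the 12 genes highest (left) and the 12 lowest (right) in SP70 against SP300, among called genes whose groups do not overlap. Points are mice, black ticks are geometric means and the dotted line marks 165; Ccl2 in SP70 runs from 2249 to 4135, and Cd163 from 133 to 234.

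Acute phase genes were higher in SP70, with a division between strongly inducible and abundant constitutive members. Saa3, a serum amyloid A made by macrophages and hepatocytes, was at 66480, 64153, 45270, 62968 and 69969 in SP70 and at 1447, 1176, 1107, 1014 and 804 in SP300, where it lay within 884 to 1578 of controls apart from the lowest mouse. It was 56.1-fold higher (5.79 ± 0.12, adjusted p = 7.60e-29). Saa2 ran from 61751 to 77475 in SP70 and from 1569 to 9775 in SP300, so the SP300 mice alone spanned a wide range (4.06 ± 0.25, 16.7-fold). Lcn2, which binds bacterial siderophores, was 12.5-fold higher than in SP300 (3.64 ± 0.22), although it also rose in SP300 against control (1.46 ± 0.22, adjusted p = 0.000224). Of 24 inducible acute phase genes, 17 were higher and 0 lower. Fibrinogen chains Fga (0.09), Fgb (0.09) and Fgg (0.03) and haptoglobin, Hp (0.02 ± 0.08), were not called. None of 16 constitutive plasma protein genes was called either, although 1 was called after quantile normalization. The summed signal of these 16 ran from 902111 to 1103094 in SP70, and the highest signal of an array from 98717 to 136014. Whether differences are compressed at such high signals was not tested. Probe sets of near-identical relatives, such as Saa1 and Saa2, may share signal.

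Genes of interleukin 6 and STAT3 followed in part. Of 16, 10 were higher and 0 lower, including the feedback inhibitor Socs3 (1.39 ± 0.31), the lipopolysaccharide-binding protein Lbp (1.47) and Stat3 itself (0.77). Il6ra, the ligand-binding receptor chain, stood at -0.26 and was not called. Cebpd, a transcription factor of the acute phase, was 3.62-fold higher (1.85 ± 0.22).

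Interferon genes were higher as well. All 14 tested genes of the interferon gamma list were higher in SP70, with a median of 1.92. Cxcl9, a chemokine for T cells, was at 29362, 20318, 12107, 18968 and 23866 in SP70 and at 1196, 1200, 937, 1318 and 1080 in SP300 (4.13 ± 0.22, 17.6-fold). SP70 mouse 3 was the lowest of its group and lay above every SP300 mouse. The GTPase Gbp2 ran from 3198 to 6671 against 233 to 442 (3.91 ± 0.22). Of 28 type I interferon response genes, 20 were higher and 0 lower, with a median of 0.94. Ifit1, which binds viral RNA, was 5.53-fold higher (2.45 ± 0.21), whereas Bst2 (0.00) and Oasl2 (-0.07) were not called. Peptide loading for class I molecules followed, with 10 of 13 higher, among them the transporter Tap1 (1.26 ± 0.16) and the immunoproteasome subunit Psmb9 (0.94), while B2m, the light chain of class I, stood at -0.02 ± 0.05. Class II genes were higher in 3 of 8, namely Cd40 (1.18), H2-Eb1 (0.70) and H2-Ab1 (0.66 ± 0.17).

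Many adhesion, matrix and effector genes were higher in SP70. Icam1, which binds leukocyte integrins on endothelium, ran from 9638 to 11144 in SP70 and from 604 to 796 in SP300 (3.80 ± 0.20, 14.2-fold). Sele, an endothelial selectin, was at least 3.69-fold higher (3.44 ± 0.39). Of 16 adhesion genes, 8 were higher. Vcam1 differed by 0.85 ± 0.22, and it also rose in SP300 against control (0.90 ± 0.22, adjusted p = 0.026). Of 23 matrix and protease genes, 12 were higher, led by Mmp12 (3.82), a macrophage elastase, the proteoglycan gene Vcan (3.78 ± 0.28), Tnc (3.13 ± 0.36) and Adamts4 (2.85 ± 0.38). The protease inhibitor gene Timp1 was among them (2.70 ± 0.29). Collagens Col1a1 (0.14), Col1a2 (-0.10) and Col3a1 (0.26) were not called. Acod1, which makes itaconate in activated macrophages, ran from 671 to 1053 against 6.21 to 12 (5.28 ± 0.23), and 10 of the 15 genes of its list were higher, with subunits of the phagocyte oxidase among them.

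Stress genes showed a graded picture. Of 35 immediate early genes, 21 were higher, with a median of 1.13, and 1 was lower, Klf10 (-0.72 ± 0.23). Egr1 was at 2169, 2527, 1801, 2432 and 1813 in SP70 and at 665, 424, 372, 377 and 383 in SP300, within the control range of 241 to 901 (2.26 ± 0.27, 4.92-fold). Of 22 death and p53 target genes, 10 were higher, among them Pmaip1 (2.69 ± 0.41), Casp4 (1.66) and Fas (1.52), while Cdkn1a, the p53 target encoding p21, stood at -0.26 ± 0.55. Unfolded protein response genes were higher in 11 of 30, at smaller sizes, as with the co-chaperone Dnajb9 (1.19) and Hspa5 (0.50). Trib3 was the 1 lower member (-0.56 ± 0.20). Cytosolic heat shock genes were higher in 5 of 16, led by Bag3 (1.52 ± 0.19). Against control, 2 of these 16 were called higher and 0 lower in SP70, with a median of 0.02. In SP300, 0 were called higher and 1 lower against control, with a median of -0.19. Targets of the antioxidant factor NRF2 were higher in 4 of 18. Nqo1 (0.07) and Gclm (-0.04) of that list were not called. The list of hypoxia and glycolysis genes had 8 higher and 2 lower members of 23, with Pfkfb3 at 1.71 ± 0.33 and Slc2a1 at -0.58.

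Iron and metal genes moved both ways, with 7 of 23 higher and 5 lower. Hmox1, the haem-degrading enzyme, was at 1972, 2192, 3867, 1358 and 2438 in SP70 and at 721, 571, 761, 975 and 1080 in SP300 (1.46 ± 0.32). Hamp, the iron hormone hepcidin, was higher (0.60 ± 0.14), and Slc40a1, the iron exporter that hepcidin removes from the membrane, was lower, from 7259 to 15696 against 19237 to 23073 (-1.19 ± 0.18, 2.29-fold). Hjv, a co-receptor that drives hepcidin, was also lower (-1.11 ± 0.15). The metallothioneins, small metal-binding proteins, rose with both particles. Mt2 was at 75278, 60735, 48713, 76323 and 76719 in SP70, at 20548, 39052, 51754, 33965 and 50124 in SP300 and from 5867 to 35662 in controls. The SP70 and SP300 mice overlapped, with a difference of 0.84 ± 0.28 (adjusted p = 0.0275).

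Markers of neutrophils and monocytes moved mostly in the opposite direction to those of Kupffer cells. Of 18 neutrophil markers, 13 were higher and 0 lower, with a median of 2.10. S100a8, a subunit of calprotectin, ran from 8876 to 12393 in SP70 and from 379 to 812 in SP300 (4.13 ± 0.23, 17.9-fold). Genes of granule proteins were divided. Mmp8 (2.81 ± 0.36), Mmp9 (2.11 ± 0.53) and Lcn2 were higher, whereas Mpo (-1.10 ± 0.52), Elane (0.19), Ltf (0.58), Camp (0.45 ± 0.59) and Ngp (0.59 ± 0.25) were not called. Mpo was below 165 in all 5 SP70 mice, at 31.0 to 87.9. The summed signal of the neutrophil list ran from 84205 to 115126 in SP70, from 7026 to 15298 in SP300 and from 3513 to 8440 in controls. Such a sum weighs the brightest members most. Lcn2 is also among the acute phase genes above and Clec4d among the danger receptors. Against control, 1 of the 18 markers was called higher in SP300. Of 14 monocyte markers, 10 were higher, among them F13a1, a coagulation factor subunit, from 1221 to 2026 against 79.0 to 161 (3.58 ± 0.16), and Ccr2, the receptor of Ccl2 (1.59 ± 0.20). The summed monocyte signal ran from 125110 to 139268 in SP70, from 93284 to 114530 in SP300 and from 88774 to 92667 in controls. The 1 lower monocyte marker was Cx3cr1, the fractalkine receptor, from 41.3 to 158 against 287 to 362 (-1.54 ± 0.33). In bulk tissue, fewer cells of a type and less RNA per cell cannot be told apart, and the part of these markers in the inflammatory genes above was not tested.

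Kupffer cell genes were lower in SP70. Of 23 markers, 13 were lower and 3 higher, with a median of -1.03. Cd163, the haemoglobin scavenger receptor, was at 198, 191, 217, 133 and 234 in SP70 and at 1181, 1585, 1606, 1669 and 2090 in SP300, which spanned most of the control range of 1073 to 1776 and exceeded it in 1 mouse (-2.98 ± 0.40, adjusted p = 5.63e-07, at least 8.02-fold lower). Vsig4, a complement receptor for particle capture, was at 897, 1433, 1979, 816 and 1619 in SP70 and at 5165, 7590, 6432, 6345 and 6343 in SP300 (-2.30 ± 0.47, 4.97-fold lower). Clec4f, a lectin specific to these cells, was at 591, 1169, 1344, 507 and 1096 against 3470, 4590, 3528, 3562 and 3422 (-2.06 ± 0.47, 4.21-fold lower). SP70 mice 1 and 4 were the lowest of the group for both Vsig4 and Clec4f. The phosphatidylserine receptor Timd4 (-2.04 ± 0.49) and the 3 chains of complement C1q, C1qa (-1.79 ± 0.41), C1qb (-1.55) and C1qc (-1.48), were lower as well.

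Macrophage genes shared with other cells did not all move this way. Cd68, a lysosomal protein of macrophages in general, stood at 0.04 ± 0.17 and the scavenger receptor Marco at 0.33 ± 0.55, neither called. Adgre1, the F4/80 antigen, was lower but overlapped between groups, from 363 to 728 against 650 to 1340 (-0.85 ± 0.17). Lyz1 (1.65), Hmox1 and Mpeg1 (0.50) were the 3 higher members. The summed Kupffer signal overlapped, from 67070 to 82708 in SP70, from 77185 to 94881 in SP300 and from 61723 to 86039 in controls. Against control, 11 of the 23 markers were called lower and 5 higher in SP70, and 0 lower and 1 higher in SP300. The list median relative to control stood from -1.11 to -0.35 in the SP70 mice and from 0.05 to 0.39 in the SP300 mice. Control mice ran from -0.30 to 0.18. Of 23 scavenger and phagocytic receptors, a list that shares Cd163, Clec4f and Timd4 with the markers, 10 were lower and 1 was higher, the oxidized lipoprotein receptor Olr1 (2.42). The engulfment kinase Mertk (-1.10), the mannose receptor Mrc1 (-1.11 ± 0.24) and the Fc receptors Fcgr3 (-0.90) and Fcgr4 (-0.95) were among the lower members.

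Endothelial genes were lower in SP70 than in SP300. Of 26 markers, 13 were lower in SP70 than in SP300 and 0 higher, with a median of -0.36. The list median stood from -0.54 to 0.06 relative to control in the SP70 mice and from 0.24 to 0.34 in the SP300 mice, and every SP300 mouse exceeded the highest control mouse at 0.21. No single marker was called higher in SP300 against control (0 of 26), and 3 were called lower in SP70 against control. Ptprb, an endothelial phosphatase, was at 2062, 2277, 3113, 2535 and 2231 in SP70, at 5682, 5043, 5333, 4407 and 4436 in SP300 and from 3712 to 4592 in controls (-1.03 ± 0.15). Kdr, the main receptor of vascular endothelial growth factor, was lower too (-0.85 ± 0.21), from 945 to 1679 against 1955 to 2952. The angiocrine ligands Wnt2 (-0.75 ± 0.23) and Bmp2 (-0.79) were lower. Pecam1 (0.30), Cdh5 (0.15) and Lyve1 (1.03 ± 0.42), which ran from 2120 to 3279 against 878 to 1927 without overlap, were not called.

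Other cell types showed fewer differences. Stellate cell markers were split, with 4 of 20 higher, among them the contractile genes Acta2 (0.71 ± 0.20) and Tagln (1.09), and 4 lower, among them Lrat, which stores retinol, from 245 to 576 against 739 to 1600 (-1.32 ± 0.26), and Colec11 (-1.35 ± 0.24). Of 8 T and NK cell markers, 2 were higher, Ncr1 (2.20 ± 0.47) and Gzma (1.39). The summed signal of all 8 was low, from 1313 to 1906 in SP70 and from 705 to 1050 in SP300. Of 8 dendritic cell markers, 2 were higher, Irf8 (1.46) and Itgax (0.85). Platelet markers were higher in 1 of 9 and lower in 2, Clec1b (-1.01 ± 0.23) and Itga2b (-0.52), and erythroid markers lower in 1 of 5, Car1 (-0.49). None of 9 B cell markers or 7 cholangiocyte markers was called. Of 17 hepatocyte markers, 1 was lower, Hal (-0.51 ± 0.17), an enzyme of histidine breakdown. Over all genes, 10.4% were called higher and 10.2% lower. The higher platelet count was near that share, and the lower hepatocyte count was below it. The T and NK, dendritic, platelet and erythroid counts each rest on 1 or 2 genes of short lists.

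**Figure D3:**
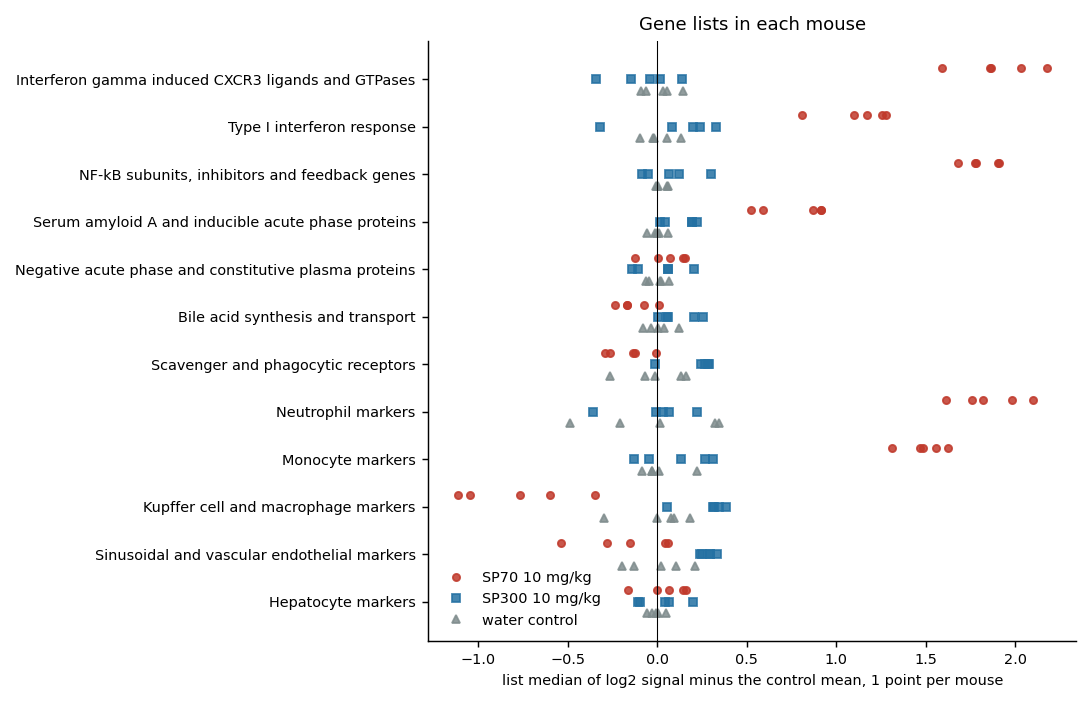
Median over the members of a list of the log2 signal minus the control mean, 1 point per mouse, for SP70, SP300 and control mice. The SP70 mice stand apart on the NF-kB list, from 1.68 to 1.91, while the 3 groups overlap on the hepatocyte markers.

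Genes of hepatocyte metabolism were lower in fewer cases and by smaller amounts. Of 26 bile acid genes, 9 were lower and 0 higher, with a median of -0.24. Klb, the co-receptor of the bile acid hormone (-0.83 ± 0.17), the sterol exporter Abcg8 (-0.70 ± 0.15) and the uptake transporter Slc10a1 (-0.30 ± 0.07) were lower, whereas Cyp7a1, the rate-limiting enzyme of bile acid synthesis, was not called (-0.67 ± 0.61). Cytochromes P450 were lower in 3 of 31 and phase II enzymes in 3 of 27, shares near the background, with Cyp4b1 (-1.28 ± 0.28) and Sult1b1 (-0.71) the lowest called. Nr1i3, the nuclear receptor CAR, which controls such enzymes, was at 4039, 4267, 5619, 6028 and 4509 in SP70, at 9705, 9134, 13620, 8466 and 12336 in SP300 and from 6304 to 9484 in controls (-1.11 ± 0.17), and Ahr, the receptor of dioxins, was at -1.11 ± 0.18. Nr1i2, the receptor PXR, was lower by less (-0.48 ± 0.15), and Ppara (-0.40 ± 0.15) and Nr1h4 (0.20 ± 0.18) were not called. Of 22 hepatocyte transcription factors and nuclear receptors, 4 were higher and 6 lower, and Hnf4a (0.26), the main hepatocyte regulator, was not called.

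Genes of lipid and sugar handling held some of the largest metabolic differences. G0s2, an inhibitor of lipolysis, was at 4357, 11886, 2282, 3704 and 10459 in SP70 and at 9281, 24608, 25791, 30865 and 37392 in SP300, where 1 SP300 mouse lay among the SP70 mice (-2.10 ± 0.49, 4.31-fold lower). Plin5, a lipid droplet coat protein, ran from 3108 to 5602 in SP70, from 7504 to 11754 in SP300 and from 4192 to 7851 in controls (-1.09 ± 0.19). Dgat2, which makes triglyceride, was 1.79-fold higher (0.84 ± 0.08). Of 28 genes of fatty acid and triglyceride synthesis, 1 was higher and 3 lower, the latter near the share of 10.2% lower over all genes. Of 26 genes of fatty acid oxidation, 1 was higher and 6 lower, with Acot1 at -1.26 ± 0.29. Against control, 1 of these 26 was called higher and 0 lower, in SP70 and in SP300 alike. The list median relative to control stood from -0.09 to 0.11 in the SP70 mice and from 0.09 to 0.32 in the SP300 mice. Every SP300 mouse exceeded the highest control mouse at 0.08. Centring on the kept probe sets raised the fatty acid oxidation genes called from 7 to 12. Of 23 genes of gluconeogenesis and glycogen, 1 was higher and 6 lower. The higher one was Igfbp1, a binding protein of insulin-like growth factor, from 17092 to 60626 against 9366 to 19934 (1.51 ± 0.42), and Irs1, an adaptor of the insulin receptor, was the lowest called, from 688 to 1278 against 1770 to 3012 (-1.23 ± 0.16). The enzymes Pck1 (-0.10) and G6pc (0.08) were not called. Against control, 1 of these 23 genes was called higher and 2 lower in SP70, and 2 higher and 0 lower in SP300. The median difference from control was -0.03 for SP70 and 0.18 for SP300.

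The remaining lists held smaller or mixed counts, and some counts changed with scaling. Of 23 cholesterol genes, 2 were higher and 1 was lower, with Abca1, the cholesterol exporter, at 1.04. Genes of the urea cycle and amino acid breakdown were higher in 1 of 29 and lower in 4, and ribosome biogenesis genes were higher in 3 of 28, led by Nop58 (1.08 ± 0.19). Over all genes, 10.4% were called higher and 10.2% lower, and the ribosome count and the lower urea cycle count were near those shares. Proteasome subunits were higher in 2 of 24 and lower in 1, and 0 of them were called after centring of arrays on their medians. Respiratory chain genes were lower in 4 of 27, but in 11 after quantile normalization, in 13 after centring on the kept probe sets and in 1 after centring on array medians. None of 19 cell cycle genes and 1 of 16 clock genes, Hlf (-0.60), were called. Of 25 complement genes, 4 were higher and 6 lower, of which C1qa, C1qb, C1qc and Vsig4 are also Kupffer markers. Coagulation genes were higher in 5 of 30, led by F13a1 and by Plau (2.07), and lower in 2, among them F3, tissue factor (-0.69). Of 16 growth hormone genes, 4 were higher, Cish among them, and 2 lower, with Igfbp3 at -1.37 ± 0.23.

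**Figure D4:**
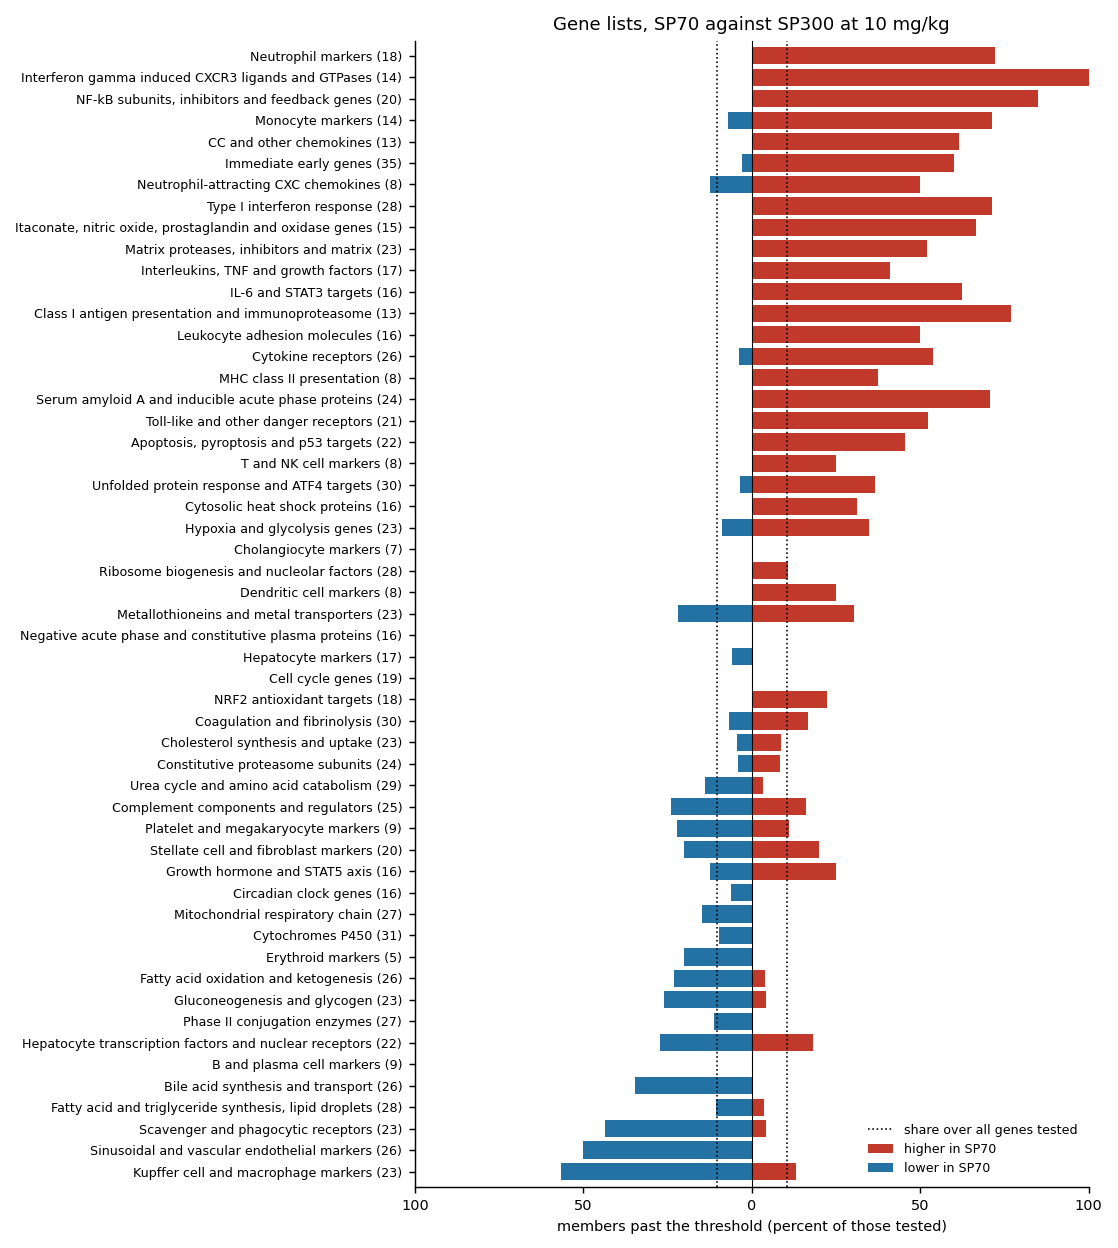
Share of tested members called higher (right) or lower (left) in SP70 against SP300, in percent, for each list, ordered by the median difference, with the number tested in brackets. Dotted lines mark the shares over all genes, 10.4% and 10.2%; all 14 genes of the interferon gamma list are higher, and 13 of 23 Kupffer markers lower.

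Set against control, the groups were far apart in the number of genes called. SP70 differed from control in 2299 genes (18.1%), with 1578 higher and 721 lower, and SP300 in 148 genes (1.17%), with 117 higher and 31 lower. These comparisons share the control mice, and each shares its treated mice with the comparison of sizes. The split moved with scaling: quantile normalization gave 1314 higher and 1407 lower for SP70, and 73 higher and 56 lower for SP300. Centring on the kept probe sets gave 1225 higher and 1465 lower for SP70 and 77 higher and 47 lower for SP300, and centring on array medians 57 higher and 30 lower for SP300. The SP300 count was 72 without SP300 mouse 3, 94 without control mouse 2 and 45 when only SP300 and control mice were fitted.

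The 10 genes furthest from control after SP300 were not those that separated the sizes most. Cish, a feedback inhibitor of growth hormone signalling, was at 739, 426, 744, 533 and 676 in SP300, at 1101, 1337, 3452, 1666 and 993 in SP70 and from 2431 to 4698 in controls. Every SP300 mouse was below every SP70 mouse, and the log2 differences from control were -2.43 ± 0.26 for SP300 and -1.12 ± 0.26 for SP70. Gadd45g, a stress response gene, ran from 592 to 1940 in SP300, from 2331 to 6804 in SP70 and from 2292 to 6856 in controls, so that SP300 alone stood apart (-1.75 ± 0.36 against control, and 0.09 ± 0.36 for SP70). Arrdc3, an arrestin relative, was the converse, from 4866 to 13315 in SP300 against 1227 to 4515 in controls (2.07 ± 0.44), with SP70 at 0.29 ± 0.44. For these 3 genes the difference between sizes was itself called, at 1.31 ± 0.26 for Cish, 1.84 ± 0.36 for Gadd45g and -1.77 ± 0.44 for Arrdc3.

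Of the other 7 genes of this set, Mt2 was called between sizes, as given above, and 6 were not. Rgs16, a regulator of G protein signalling, was 2.38 ± 0.52 above control after SP300 and 2.78 ± 0.52 after SP70, and the sizes differed by 0.40 ± 0.52 with a 95% confidence interval from -0.66 to 1.47. Onecut1, a hepatocyte transcription factor, was at -2.32 ± 0.55 after SP300 and -2.21 ± 0.55 after SP70, with an interval of their difference from -1.0 to 1.22. Scara5, a ferritin receptor, was at 1.67 ± 0.33 and 2.02 ± 0.33, and Slc25a30, a mitochondrial carrier, at -1.96 ± 0.36 and -2.38 ± 0.36, with intervals from -0.33 to 1.03 and from -1.15 to 0.30. None of these 4 was called between sizes, which does not show that the particles act alike. Bcl6 (adjusted p = 0.0615) and Socs2 (adjusted p = 0.110) were not called between sizes either. Socs2 lost its call against control under 13 of the alternatives, Onecut1 and Rgs16 under 4 each.

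Outside this set, 2 members of the gluconeogenesis list showed a like pattern to Arrdc3. Fkbp5, a target of the glucocorticoid receptor, from 5039 to 9787 after SP300 and 2759 to 4908 after SP70, was 1.21 ± 0.17 above control after SP300 and 0.25 ± 0.17 after SP70, and differed between sizes (-0.96 ± 0.17). Foxo1, a fasting regulator, was likewise higher than control after SP300 (0.70 ± 0.13) and not called after SP70 (-0.07 ± 0.13), with a difference between sizes of -0.77 ± 0.13.

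**Figure D5:**
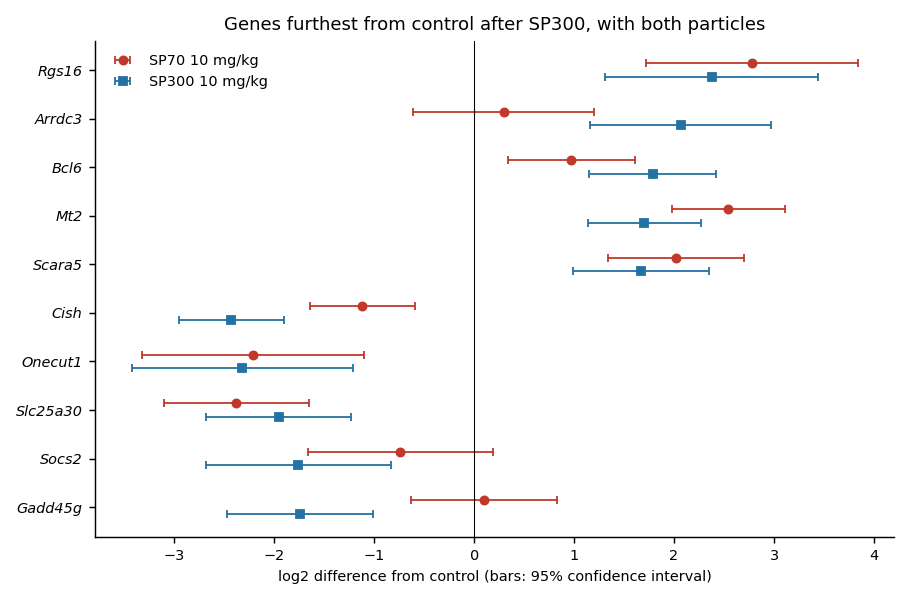
Difference from control (log2) with its 95% confidence interval for the 5 highest and 5 lowest genes called in SP300 against control, for SP300 and SP70. Gadd45g is at -1.75 for SP300 and 0.09 for SP70, whereas Rgs16 is above control for both.

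The spread between mice of a group was similar for both particles over all genes. The median SD of the log2 signal over genes was 0.229 in SP70, 0.220 in SP300 and 0.219 in controls, and the SD was larger in SP70 than in SP300 for 50.6% of the genes. Among the genes with the brightest mean signals over all 35 arrays, the SP70 mice spread most in Cyp4a14, a fatty acid hydroxylase, from 683 to 7291, and in Cdkn1a, from 896 to 6045, with Serpina4-ps1, C6 and Nr1d2 following. The SP300 mice spread most in Socs2, from 512 to 7268, Elovl3, from 4365 to 37505, Il1rn, Saa2 and Cxcl2. Il1rn in 3 SP300 mice and Cxcl2 in all 5 were below 165, where a low signal cannot be told from background. Controls ranged as widely in Cyp4a14, from 598 to 15336, and in Cdkn1a, from 222 to 5233.

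The same particle at 200 mg/kg is given beside these values, at a dose that differs and so with no comparison. Ccl2 was at 3186 ± 740.2 (SD, n = 5) after SP70 at 10 mg/kg, 12.1 ± 4.16 after SP300 at 10 mg/kg and 1408 ± 657 after SP300 at 200 mg/kg. Clec4f was at 941 ± 371, 3714 ± 493 and 45.6 ± 47.0 in the same order. SP30, the smallest particle, at 10 mg/kg gave 7565 ± 1065 for Ccl2 and 721 ± 324 for Clec4f.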

How the data were processed

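Liver RNA of 35 mice in 7 groups of 5 was measured on 1 array each, and the 15 arrays of SP70 and SP300 at 10 mg/kg and of control are described here, with group means of 2 genes from 10 more. Each probe set has a linear intensity that the authors made and deposited. MAS5 is named for it in the submitters' processing notes, without a version; the target of its scaling is not given in the labels or headers. The table has no detection calls, and depth has no counterpart on arrays, whose number limits the precision. Of 45101 probe sets, 34945 have 1 gene in the platform's annotation, 932 several and 9160 none. No further scaling was applied.

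A pseudocount of 12.5 (10th percentile) was added before log2. A probe set was kept where it exceeded 165 on at least 5 arrays, and each gene took its brightest kept probe set. All 35 arrays were fitted with group means in limma 3.58.1 (R 4.3.3), with a variance trend and two-sided moderated tests, adjusted by Benjamini-Hochberg over 12678 genes. The fit was also run on simulated data with known changes and normal noise drawn independently for each probe set. Such data lack shifts shared between genes, and the run is not used as support here. Gene lists, 53 in all with 963 tested genes, share members, and no list was tested. The members and lists were chosen with earlier results of these data known. Named genes are the 12 highest and 12 lowest called genes without overlap between groups, members of lists with the smallest adjusted p or described with their list, the 5 highest and 5 lowest for SP300 against control, and the 5 with the largest SD in each group. Replicate numbers did not pair mice: deviations of same-numbered SP70 and SP300 mice correlated across genes at a mean of 0.0156 (from -0.0449 to 0.0436), and of others at -0.00389. Alternatives changed the pseudocount, filter, scaling, probe set rule, fitted samples, variance trend, block and mice left out.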

Additional observations from a re-analysis of the deposited data

Results flagged for a closer look

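Single mice stood apart from the other 4 of their group by a gap above Dixon's critical value in 8 of 52 sets. The sets were signals of the leading genes in each group, with the array medians and first component scores added. All 8 that were flagged were signals of leading genes. The signals were not on the log scale, and the chance rate of about 1 in 20 assumes normal values. Saa3 was at 45270 in SP70 mouse 3, against 62968 or more in the other SP70 mice. Clec4d was at 998 in SP70 mouse 5, against 1414 or more in the others, and at 110 in SP300 mouse 1, against 19.8 or less. Tlr2 was at 72.8 in SP300 mouse 5, against 155 or more. Clec4f was at 4590 in SP300 mouse 2, against 3562 or less, and C1qa was at 2942 in SP300 mouse 1, against 4514 or more. Plscr4, a scramblase relative, was at 181 in SP70 mouse 4, against 59.1 or less, and S1pr5, a sphingosine phosphate receptor, at 192 in SP70 mouse 2, against 45.5 or less. These genes had been chosen as called genes without overlap between the groups. The flagged sets of Clec4d in SP300 and of Plscr4 and S1pr5 in SP70 lay wholly or mostly below 165.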

How the results depend on the processing

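For SP70 against SP300, the count of genes called ran from 2073 to 2748 when single mice were left out, with 1121 to 1344 higher and 815 to 1412 lower, and the lowest of these came without SP300 mouse 3. With the replicate block, 2582 were called, and the block moved no count by over 1.5 times. In a fit of only the groups compared, 2080 were called, 1117 higher and 963 lower. Centring on the kept probe sets, chosen after seeing the data, gave 1951 lower. For SP70 against control, 1407 were lower after quantile normalization and 1465 after that centring, and leaving out mice gave 1895 to 2416 called, 1327 to 1588 higher and 518 to 850 lower. For SP300 against control, 73 were higher and 56 lower after quantile normalization, 87 called and 57 higher after centring on array medians, 77 higher and 47 lower after centring on the kept probe sets, and 45 called, 33 higher and 12 lower in a fit of only the groups compared. Leaving out mice there gave 72 to 164 called, 48 to 131 higher and 21 to 39 lower, with 94 called without control mouse 2 and 72 without SP300 mouse 3. The cause of these shifts was not tested. Of 2985 values of 143 named genes under the alternatives, 2883 kept direction and side of the threshold, 102 lost the call and 0 reversed. Psma5 and Ndufa9 lost it most often. All 143 had been picked by their difference or adjusted p among genes called in the main fit. Their kept calls are therefore no separate support, and genes named as not called are not among them. Of 210 values of the 10 genes named for SP300 against control, 24 lost the call, in 5 genes, and 0 reversed. A count in 1 direction moved by over 1.5 times under a scaling in 21 of 53 lists. Centring on the kept probe sets changed the lower members from 2 to 5 for hypoxia, 6 to 11 for fatty acid oxidation, 3 to 5 for fatty acid synthesis, 2 to 4 for coagulation and 1 to 2 for the clock, and the higher complement genes from 4 to 2, as did centring on array medians. The latter changed the lower urea cycle genes from 4 to 2, and those of coagulation and growth hormone from 2 to 1. Quantile normalization changed the lower P450 genes from 3 to 5. A count of 0 became 1 on the lower side for class II, interleukin, STAT3, death, matrix, ribosome, B cell and dendritic cell genes, and on the higher side for bile acid genes. Signals under 165 give only bounds on folds, and without detection calls a low signal cannot be told from background.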

Other observations

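Of 4204 probe sets above the filter without a single named gene, 430 were called between SP70 and SP300, 271 higher and 159 lower in SP70. This is 10.2%, against 20.6% of the named genes. The shares have unlike units, since these probe sets were tested singly with an adjustment of their own, whereas each named gene took its brightest probe set.

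Among the 12 lowest genes were several with no Kupffer cell role in the lists. Tsc22d1, a transcriptional regulator, was at 4857, 7678, 11963, 3485 and 5270 in SP70, from 16881 to 27308 in SP300 and from 10579 to 28744 in controls (-1.76 ± 0.28). Pth1r, the parathyroid hormone receptor, ran from 89.1 to 219 in SP70 and from 459 to 760 in SP300 (-1.98 ± 0.40). Tmie (-2.78 ± 0.64) and Slc16a9, a carrier of the monocarboxylate family (-2.20 ± 0.42), had SP70 mice spread from 19.7 to 461 and from 21.4 to 134.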
